A study of Caenorhabditis elegans with 2 samples.

Results

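The nuclear genes for mitochondrial ribosomal proteins were examined in a ChIP-seq study (sequencing of the DNA that comes down with a protein) of the worm Caenorhabditis elegans and its nuclear hormone receptor NHR-77. The members were all protein-coding genes whose symbols start with mrpl- (large subunit) or mrps- (small subunit) in the Ensembl annotation of the worm genome (assembly WBcel235, the same as build ce11). They numbered 70 of the 19973 protein-coding genes of the nuclear chromosomes, with 41 genes of the large subunit and 29 of the small subunit. RefSeq product names were found for all 70 and named a ribosomal protein for 69 of them, the exception being mrps-27, which is listed there as an Ig-like domain protein. RefSeq calls the product of mrps-18C a large subunit protein and that of mrpl-48 a small subunit domain protein, but the subunit given here follows the symbols.

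The study had 1 group of whole L2 larvae of strain OP353, genotype unc-119(tm4063) III; wgIs353, of both sexes and of unstated age in hours. All of the worms carried the unc-119 allele and a transgene for eGFP-tagged NHR-77. There were 2 biological replicates, and no control sample was used here. The protein mapped is thus the product of a transgene in 1 strain, over all tissues of the animal together, and the sources used here do not give the promoter that drives it. The labels name the target protein in the antibody field but describe the assay as directed at the eGFP fusion.

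Mitochondrial ribosomes translate the few membrane proteins encoded by mitochondrial DNA, which are subunits of the respiratory chain and the ATP synthase. Their ribosomal RNAs come from mitochondrial DNA, but every one of their proteins is encoded in the nucleus, made in the cytosol and imported. Some of the proteins descend from those of bacterial ribosomes and others are found in mitochondria alone. Lowering mrps-5 and other genes of this set by RNA interference is known to lengthen the life of worms and to start the mitochondrial unfolded protein response. In C. elegans many genes lie in operons, close behind each other on 1 strand, and are transcribed from a promoter in front of the first gene, after which trans-splicing gives each mRNA its own 5′ end. NHR-77 belongs to the large nematode expansion of nuclear receptors.

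The data were lists of regions. A pooled list of both replicates held 30000 regions with signal values of 5.72 to 244.8 and a median of 7.98. The authors' thresholded list held 415 peaks, which were the 415 highest pooled regions, with a lowest signal value of 27.1. For the replicates, 23256 regions were listed in replicate 1 and 30000 in replicate 2. The signal value is the score that the peak caller gave a region. Its scale is not stated and differs between lists, so lists were compared by rank, where 1 is the highest. Read depth is unknown from the files. For each gene the pooled region of highest signal with a summit within 1000 bp of the annotated 5′ end (the start) was taken, and a region counted as present in a replicate where it overlapped a region of that replicate's list. There is no group to test against, so shares are given with 95% Clopper-Pearson intervals, which cover counting error only, and differences from other genes were not tested.

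The DNA under the summit is shown for 9 regions: those of the 4 members with a thresholded peak, the next highest member (mrpl-12), and 4 more regions that hold a short sequence shared among members. Each stretch is 101 bp of the RefSeq genome (WBcel235) centred on the summit, 5′ to 3′ on the strand of the gene named, and none touches an annotated UTR. Capitals mark GCGCTCC, its reverse complement, or CAAACACC, the letter groups described with the sequence results.
mrpl-55, chrIV:443787-443887 (+): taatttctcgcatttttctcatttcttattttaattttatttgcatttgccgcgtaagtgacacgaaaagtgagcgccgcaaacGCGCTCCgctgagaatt
mrps-21, chrIV:4660460-4660560 (-): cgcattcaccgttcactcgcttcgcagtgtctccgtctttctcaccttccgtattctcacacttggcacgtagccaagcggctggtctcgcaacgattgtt
mrps-7, chrIV:14767856-14767956 (-): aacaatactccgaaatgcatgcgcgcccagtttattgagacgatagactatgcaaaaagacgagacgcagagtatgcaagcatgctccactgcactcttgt
mrpl-28, chrII:156100-156200 (-): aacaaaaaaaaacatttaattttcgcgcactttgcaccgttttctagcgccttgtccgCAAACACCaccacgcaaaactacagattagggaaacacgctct
mrpl-12, chrIII:10707162-10707262 (+): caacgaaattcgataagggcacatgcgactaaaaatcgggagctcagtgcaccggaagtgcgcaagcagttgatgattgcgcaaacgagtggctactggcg
mrpl-45, chrIII:1202315-1202415 (-): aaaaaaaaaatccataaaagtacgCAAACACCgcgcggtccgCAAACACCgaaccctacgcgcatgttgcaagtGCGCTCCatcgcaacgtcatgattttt
mrps-17, chrIII:6431889-6431989 (-): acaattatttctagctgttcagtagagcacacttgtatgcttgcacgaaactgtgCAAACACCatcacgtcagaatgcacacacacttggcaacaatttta
mrpl-49, chrV:12728417-12728517 (+): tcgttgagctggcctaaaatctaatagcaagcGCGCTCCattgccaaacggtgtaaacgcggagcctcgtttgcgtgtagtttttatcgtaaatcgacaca
mrps-24, shared with mrpl-1, chrIV:7709867-7709967 (+): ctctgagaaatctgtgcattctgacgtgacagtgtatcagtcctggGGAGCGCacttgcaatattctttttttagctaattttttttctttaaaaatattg

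Most members had a region near the start, but few of those regions were among the thresholded peaks. A pooled region lay within 1000 bp of the start of 57 of the 70 members (81.4%, interval 70.3 to 89.7), against 10183 of all 19973 genes (51.0%). A thresholded peak lay there for 4 members (5.71%, interval 1.58 to 13.99), against 398 of all genes (1.99%). The members' regions were more often in the upper part of the list. A region ranked 1000 or higher lay near 7 members (10%, interval 4.12 to 19.5), against 4.16% of all genes. For rank 3000 or higher it was 21 members (30%, interval 19.6 to 42.1), against 9.41%. The intervals for thresholded peaks and for rank 1000 include the shares of all genes. The median signal value was 10.4 over the 57 members with a region and 8.82 over all genes with one. The middle of the members spread from 7.56 to 15.6 (quartiles) and that of all genes from 7.13 to 11.7, so the ranges overlap over most of their length. No member lies on X, where 13.7% of protein-coding genes are. Among autosomal genes alone, 50.8% had a region and 2.05% a thresholded peak.

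**Figure D1:**
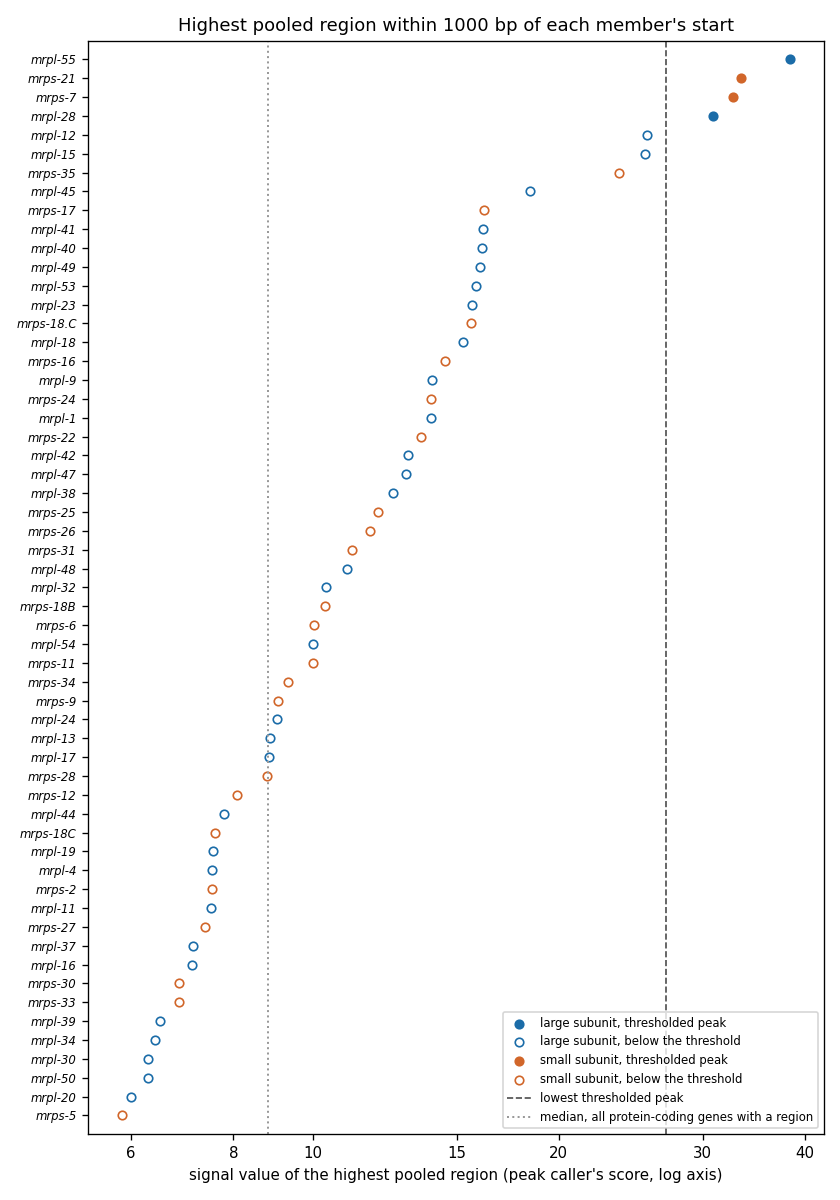
Signal value of the highest pooled region (horizontal log axis, the peak caller's score) for each of the 57 members with a region, ordered from high to low, with the subunit by colour and thresholded peaks filled. Only mrpl-55, mrps-21, mrps-7 and mrpl-28 lie right of the lowest thresholded peak (27.1), and most members lie right of the median of all genes (8.82).

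The highest region belonged to mrpl-55, which encodes a large subunit protein, placed only by its number with those found in mitochondria alone. It spanned chrIV:443672-444001, with the summit 148 bp upstream of the start, in intergenic sequence. Its signal value was 38.4 in the pooled list (rank 186), 10.9 in replicate 1 (rank 280) and 26.2 in replicate 2 (rank 220), so it stood high in both replicates. The region of mrps-21, whose product is a small subunit protein with a bacterial counterpart, had 33.4 in the pooled list (rank 261), 11.9 in replicate 1 (rank 231) and 27.0 in replicate 2 (rank 204). It too was high in both, but its summit was 993 bp upstream of mrps-21 and only 309 bp upstream of F29B9.11, the gene in front of it on the same strand.

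The other members with a thresholded peak differed between the replicates. The region of mrps-7, which encodes a protein of the small subunit's head, had 32.6 in the pooled list (rank 267), 5.09 in replicate 1 (rank 3462) and 26.8 in replicate 2 (rank 210). That of mrpl-28, for a large subunit protein with a bacterial counterpart, had 30.9 in the pooled list (rank 298), 2.92 in replicate 1 (rank 13487) and 25.6 in replicate 2 (rank 230). Both were high in replicate 2 and far down the list of replicate 1. Their summits were 176 bp upstream of mrps-7 and 141 bp upstream of mrpl-28, in intergenic sequence. The start of the divergent gene Y57G11C.3 lay 471 bp from that of mrps-7, so the region stands between 2 starts.

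Just below the threshold came mrpl-12, whose product forms the flexible stalk that recruits translation factors, with 25.6 in the pooled list (rank 475), rank 424 in replicate 1 and rank 392 in replicate 2. Its summit was 549 bp upstream of mrpl-12 and 184 bp from the start of Y39A1A.22. The region of mrpl-15, a large subunit gene, ranked 478 in the pooled list, 12407 in replicate 1 and 805 in replicate 2. That of mrps-35, a small subunit gene, ranked 552 in the pooled list, 501 in replicate 1 and 640 in replicate 2, and lay in the annotated 5′ UTR of the overlapping gene sws-1. Thus mrpl-12 and mrps-35, like mrpl-55 and mrps-21, held similar ranks in both lists, while mrpl-15 did not.

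The rest of the 15 highest members were closer together. mrpl-45, whose mammalian product sits at the exit of the ribosome's peptide tunnel, had a signal value of 18.4 in the pooled list, with rank 3483 in replicate 1 and rank 1345 in replicate 2. mrps-17, mrpl-41, mrpl-40, mrpl-49, mrpl-53, mrpl-23 and mrps-18.C followed with 15.6 to 16.2 in the pooled list. Among these 7, mrpl-41, mrpl-49, mrpl-53, mrpl-23 and mrps-18.C had no region in replicate 1, and mrpl-40 ranked 1108 in replicate 1 and 20186 in replicate 2. The 3 lowest members were mrpl-50 at 6.28, mrpl-20 at 6.0 and mrps-5 at 5.84. The region of mrps-5 ranked 28936 in the pooled list, had no counterpart in either replicate's list and lay 904 bp upstream in a coding exon of sel-1, a gene of endoplasmic reticulum protein degradation.

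No pooled region lay within 1000 bp for 13 members: mrpl-2, mrpl-10, mrpl-21, mrpl-22, mrpl-35, mrpl-36, mrpl-46, mrpl-51, mrps-10, mrps-14, mrps-15, mrps-18A and mrps-23. Just outside the distance were mrpl-46 at 1013 bp, mrps-23 at 1167 bp and mrpl-51 at 1225 bp. Just inside were mrpl-32 at 994 bp, mrps-21 at 993 bp and mrpl-23 at 988 bp, by their highest regions, so a thresholded peak, that of mrps-21, depends on the distance chosen. mrpl-32 has a lower region at 551 bp as well, with a signal value of 8.96.

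Large and small subunit genes gave values close to each other. Of the large subunit genes 33 of 41 had a region (80.5%, interval 65.1 to 91.2) and 2 a thresholded peak, with a median signal value of 11.0. Of the small subunit genes 24 of 29 had a region (82.8%, interval 64.2 to 94.2) and 2 a thresholded peak, with a median of 10.2. Among proteins found in mitochondria alone, 24 of 27 genes had a region (88.9%, interval 70.8 to 97.6), and among those with a bacterial counterpart 33 of 43 did (76.7%, interval 61.4 to 88.2). These classes follow the numbers in the symbols. RefSeq gives the product of mrpl-34, placed with the bacterial counterparts, as mL43, a name for a protein found in mitochondria alone. The intervals overlap for the subunits and for these classes. By chromosome, 22 of the 70 members lie on III (31.4%, against 13.2% of all genes), where 15 had a region and none a thresholded peak (highest mrpl-12), while IV held 11 members and 3 of the 4 thresholded ones. All 10 members on V had a region, with values of 5.84 to 23.7. The shares of all genes with a region or a thresholded peak were not computed by chromosome. These counts therefore have no background, and a difference between chromosomes was not tested.

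The replicates were compared within the members' own regions. Of the 57 regions so counted, 31 (54.4%) overlapped a region of replicate 1, against 41.5% of those of all genes, and 47 (82.5%) overlapped one of replicate 2, against 73.7%. Both replicates listed 23 (40.4%, against 27.9%), replicate 2 alone 24, and replicate 1 alone 8. The regions of mrpl-50 and mrps-5, 2 in all, were listed in neither. Only mrpl-55 and mrps-21 were among the 415 highest regions of both replicates, which is 2.86% of the members (interval 0.35 to 9.94), against 0.901% of all genes. The list of replicate 1 counts 23 regions of mitochondrial DNA, 22 of them among its 415 highest, and that of replicate 2 has none. With nuclear regions alone, mrpl-12 joined, for 3 members in all. Across the 23 members listed in both, the signal values of the replicates had a Spearman rho of 0.38, and across 2842 genes of the whole set rho was 0.38 as well. These correlations are across genes of the same libraries, some of which share regions.

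**Figure D2:**
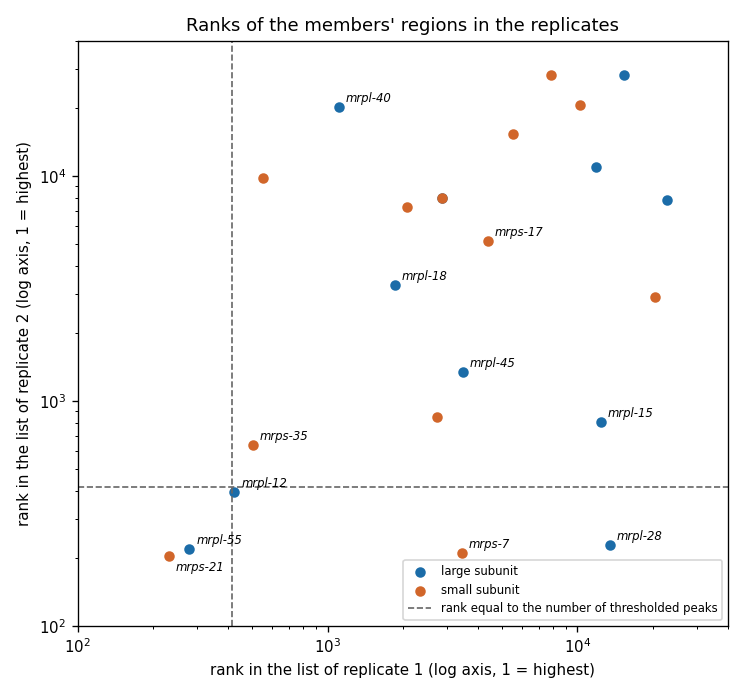
Rank of each member's region in replicate 1 (horizontal) and replicate 2 (vertical), both on log axes where 1 is the highest, for the 23 members listed in both, coloured by subunit, with names for pooled ranks up to 2000 and dashed lines at rank 415. mrps-24 and mrpl-1 share a point. mrpl-55 and mrps-21 are the only members inside both lines, mrpl-12 is just outside the line of replicate 1, and mrps-7 and mrpl-28 are high in replicate 2 only.

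Each replicate's list was also read without the pooled list. Replicate 1 had a region within 1000 bp of 44 members (62.9%, interval 50.5 to 74.1), against 42.7% of all genes, and replicate 2 of 52 members (74.3%, interval 62.4 to 84.0), against 50.7%. Their signal values compared differently with other genes. In replicate 1 the median was 3.29 over members and 3.45 over all genes, and in replicate 2 it was 8.11 over members and 6.95 over all genes. The higher share with a region was thus seen in both replicates, the higher median signal in replicate 2 alone. Of the members 2 were among the 415 highest regions of replicate 1 (2.86%, against 1.71% of all genes) and 4 among those of replicate 2 (5.71%, against 1.95%).

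The summits of the members lay mainly upstream of the start. They were upstream for 38 of 57 members (66.7%), against 59.7% of all genes with a region, and 100 to 400 bp upstream for 24 (42.1%), against 24%. The median distance from the start was 273 bp for members and 406 bp for all genes. The summit fell in intergenic sequence for 31 members (54.4%, against 49.3% of all genes with a region), an intron for 11 (19.3%, against 23.3%), a coding exon for 9 (15.8%, against 19.2%), a 5′ UTR for 3 (5.26%, against 4.38%) and a 3′ UTR for 3 (5.26%, against 3.75%). Many of these regions stand near other genes too. The member's own start was the nearest one for 42 of the 57 (73.7%), against 86.0% of all genes with a region, and 2 pairs of members shared a region: mrps-24 with mrpl-1, which are divergent, and mrps-2 with mrpl-4.

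**Figure D3:**
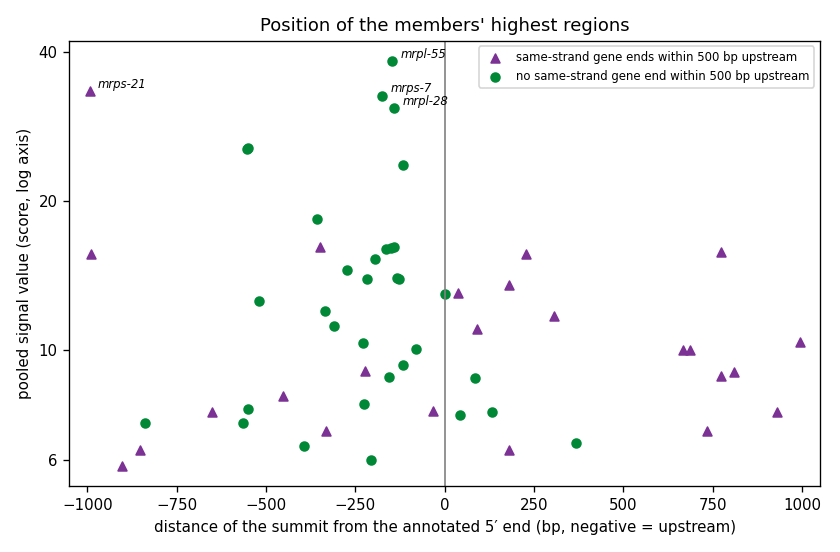
Distance of the summit from the member's start (horizontal, bp, negative upstream) and pooled signal value (vertical log axis) for the 57 members with a region, split by whether a same-strand gene ends within 500 bp upstream. Most high values of members without such a gene (circles) lie 100 to 400 bp upstream, with mrpl-12 and mrpl-15 farther out, while members behind a gene (triangles) are spread over both sides, with mrps-21 at the upstream edge.

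The position of the region went with the layout of the genes. A protein-coding gene on the same strand ended within 500 bp upstream of 27 of the 70 members (38.6%), against 18.1% of all genes. Of these 27 members 24 had a region (88.9%, interval 70.8 to 97.6), but the summit was upstream of the start in only 10 of the 24, at a median distance of 658 bp, and the median signal value was 9.55. Of the other 43 members 33 had a region (76.7%, interval 61.4 to 88.2), with the summit upstream in 28 of the 33, at a median distance of 196 bp, and a median signal value of 12.6. With the distance to the start set at 500 bp the shares turned round, to 51.9% of members behind a same-strand gene and 65.1% of the others. Over all genes 54.5% of those behind a same-strand gene and 50.2% of the others had a region, with medians of 8.81 and 8.82. The split in position was smaller there than among members, with the summit upstream for 1061 of 1972 genes behind a same-strand gene and for 5014 of 8211 other genes. A divergent start lay within 1000 bp of 26 members (37.1%), against 17.7% of all genes. Of these 26, 20 had a region (76.9%, interval 56.4 to 91.0), with a median signal value of 13.0, and of the other 44 members 37 had 1 (84.1%, interval 69.9 to 93.4), with a median of 10. At 500 bp these shares turned round too, to 69.2% with a divergent start and 54.5% without. Over all genes 56.1% of those with a divergent start and 49.9% of those without had a region, with medians of 10.2 and 8.61. Whether the gene or its divergent neighbour goes with the region cannot be told apart from these lists.

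The annotated start of a trans-spliced gene can be the splice site rather than the place where transcription begins. The letters CAG, which end a splice acceptor site, stood directly before the start of 42 members (60%), against 22.1% of all genes. No thresholded peak lay near the 42 members with CAG (0%, interval 0 to 8.41), and all 4 lay near the 28 members without it (14.3%, interval 4.03 to 32.7). Over all genes the shares ran the other way, with 3.72% of 4409 genes with CAG and 1.5% of 15564 genes without.

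Because 27 members follow a same-strand gene closely, the first gene of each such run was examined as well, a choice made after the values were seen. A run here is a chain of same-strand protein-coding genes with gaps of at most 500 bp, which is a layout and not a list of known operons. The 27 members had 26 different first genes. A pooled region lay within 1000 bp of the first gene's start for 21 of the 27 (77.8%, interval 57.7 to 91.4), against 58.6% over all 3618 genes behind a same-strand gene. A thresholded peak lay there for 6 (22.2%, interval 8.62 to 42.3), against 4.31%, and a region ranked 3000 or higher for 12 (44.4%), against 15.8%. The median signal value at these first starts was 19.4 for members and 9.62 for all such genes, and the summit was upstream of the first start for 19 of 21 members (90.5%), against 67.8%. For 16 of the 27 members, against 1520 of the 3618 genes, the region at the first start had a higher value than that at the gene's own start or the own start had none, as for mrps-14.

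The 6 runs with a thresholded peak at the first start each had another gene in front of the member. mrpl-32 lies behind rpn-3, a subunit of the proteasome's regulatory particle, where the region at chrIII:8446987-8447316 had a signal value of 56.6 (rank 69 in the pooled list, 55 in replicate 1 and 161 in replicate 2), against 10.4 at mrpl-32 itself. mrpl-48 lies behind vps-37, a gene of the ESCRT-I sorting complex, where the region had 35.1 (rank 233, with 2307 in replicate 1 and 165 in replicate 2), against 11.0 at mrpl-48. In both runs the high region was the one in front of the neighbour. mrpl-41 lies behind misc-1, a mitochondrial carrier gene, where the region had 32.6 (rank 268, with 422 in replicate 1 and 295 in replicate 2), against 16.2 at mrpl-41. mrpl-54 lies behind clsp-1, the claspin gene, where the region had 29.0 (rank 351, with 519 in replicate 1 and 223 in replicate 2), against 10 at mrpl-54. mrpl-23 lies behind fars-1, a cytosolic phenylalanyl-tRNA synthetase gene, where the region had 27.3 (rank 404, with 11181 in replicate 1 and 348 in replicate 2), against 15.7 at mrpl-23. For mrps-21 behind F29B9.11 it is the same region as its own. Only the regions of rpn-3 and F29B9.11 were among the 415 highest of both replicates, 2 of 27 members (7.41%, against 2.18%). The region of misc-1, at rank 422 in replicate 1, was just outside. It comes inside with nuclear regions alone, since 22 of the 415 highest there are of mitochondrial DNA.

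Some members without a region of their own, or with a weak one, were also in such runs. mrps-14 had none, but the start of nrde-2, a nuclear RNA interference gene in front of it, had 23.1 (rank 581, with 5000 in replicate 1 and 602 in replicate 2). mrps-30 had 6.87 at its own start and 20.2 at that of eif-3.E, a translation initiation factor gene at the head of the run (rank 811, with 14342 in replicate 1 and 836 in replicate 2). Both first starts ranked far higher in replicate 2. mrps-22 went the opposite way, with 13.6 at its own start and 7.86 at that of rpb-6, an RNA polymerase subunit gene. mrps-5 had low values at both, 5.84 at its own start and 6.09 at that of sel-1. mrpl-2 and mrpl-21 had no region at their own starts, nor at those of F56B3.9 and T08A11.1, the first genes of their runs.

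**Figure D4:**
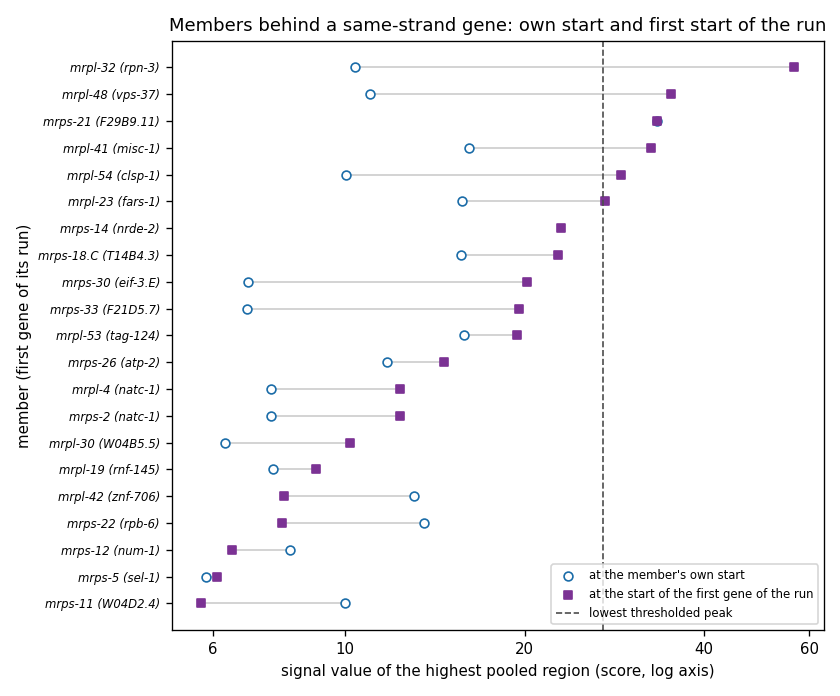
Signal value (horizontal log axis, the peak caller's score) at the member's own start (open circles) and at the start of the first gene of its run (squares, gene in brackets) for the 21 members whose first gene had a region. Squares lie to the right for most runs, 6 of them at or past the lowest thresholded peak (27.1, dashed), and mrps-14 has a square only.

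Other genes of mitochondrial gene expression were read from lists of known factors. A region ranked 3000 or higher lay near 25% of the translation factors, 16.7% of the mitochondrial tRNA synthetases and 18.2% of the genes of mitochondrial DNA upkeep, transcription and ribosome assembly, which is 2 genes in each list, against 9.41% of all genes. Of the translation factors 8 of 17 symbols were found in the annotation, and 7 of the 8 genes (87.5%, against 51.0% of all genes) had a region, none of them thresholded. The highest were mma-1, the LRPPRC-like gene (23.1, rank 575), gfm-1, mitochondrial elongation factor G (17.1, rank 1304), and mtrf-1L, a release factor gene (11.3). Of the mitochondrial aminoacyl-tRNA synthetases 12 of 16 symbols were found, and 8 (66.7%) had a region. Among those ears-2, the glutamyl-tRNA synthetase gene, had a thresholded peak (33.5, rank 260, with 2206 in replicate 1 and 174 in replicate 2), but the start of uncp-18 was nearer to it. aars-1 followed with 13.5 and fars-2 with 9.06. Of the genes for mitochondrial DNA upkeep, transcription and ribosome assembly 11 of 14 symbols were found, and 7 (63.6%) had a region, none thresholded. The highest were mtg-1 and noa-1, GTPases of ribosome assembly, with 19.5 (rank 901) and 15.9 (rank 1614), and mtss-1, the single-stranded DNA binding protein, with 9.76. dap-3, which encodes a small subunit protein but does not carry an mrps symbol, and rpom-1, the mitochondrial RNA polymerase gene, had none. The regions of aars-1, mtg-1 and mtss-1 had no counterpart in replicate 1, and that of fars-2 none in either replicate. In replicates 1 and 2 mma-1 ranked 2907 and 723, gfm-1 754 and 8831, mtrf-1L 1140 and 27186, and noa-1 1191 and 3628.

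Ribosomal protein genes of the cytosol served as a comparison list. The share of genes with a region was close in both sets, while the regions of the cytosolic set were higher. A region lay near 57 of 70 mitochondrial ribosomal protein genes (81.4%) and 72 of 81 cytosolic ones (88.9%, interval 80.0 to 94.8). The region between the divergent genes mrpl-49 and rpl-28 is counted in both sets. A thresholded peak lay near 4 of the mitochondrial genes (5.71%, interval 1.58 to 13.99) and 29 of the cytosolic genes (35.8%, interval 25.4 to 47.2), intervals that do not overlap. The median signal value was 10.4 in the mitochondrial set and 19.1 in the cytosolic set, and the 415 highest regions of both replicates included those of 2 mitochondrial and 16 cytosolic genes. The Spearman rho between replicates was 0.38 over 23 mitochondrial and 0.74 over 56 cytosolic genes. The sets also differed in base content, with a median of 33.3% GC in the windows that reach 100 bp to each side of the summit for mitochondrial and 40.5% for cytosolic genes (34.8% for all genes). Across the 57 members signal and GC had a rho of 0.28. The part of GC content in these differences was not tested. The layouts of the sets differed as well. CAG stood before the start of 79.0% of the cytosolic genes, against 60% of the members. A divergent start lay within 1000 bp of 59.3%, against 37.1%. A same-strand gene ended within 500 bp upstream of 11.1%, against 38.6%. Summits lay 100 to 400 bp upstream for 61.1% of the cytosolic genes with a region, against 42.1% of such members.

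**Figure D5:**
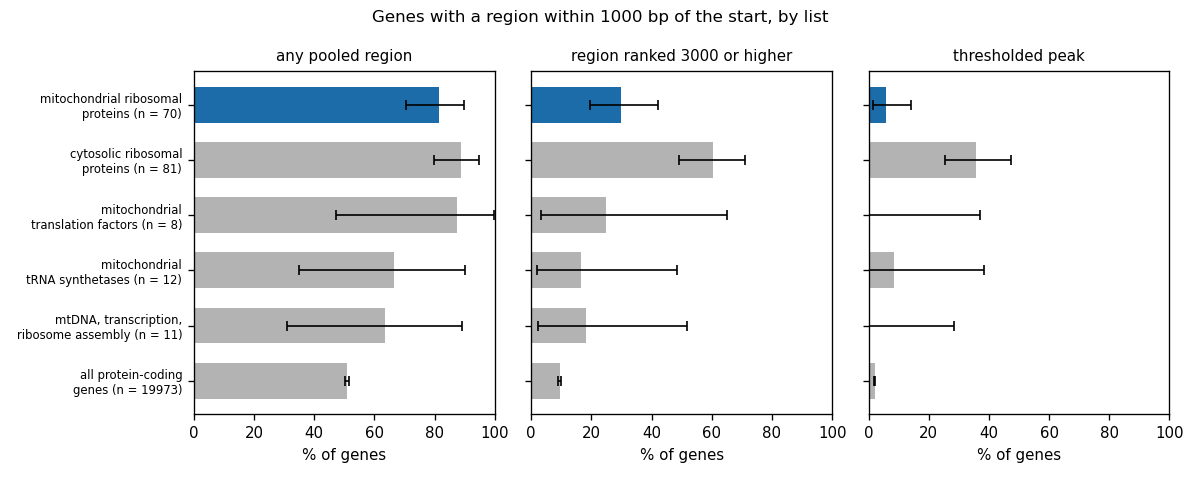
Share of genes (horizontal, percent) with any pooled region, a region ranked 3000 or higher, and a thresholded peak within 1000 bp of the start, for the members (top), 4 other gene lists and all protein-coding genes, with 95% Clopper-Pearson intervals. The members are near the cytosolic set for any region (81.4% and 88.9%) and well below it for thresholded peaks (5.71% and 35.8%), and the small lists have wide intervals.

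The sequence around the summits was searched for short patterns on both strands of the same windows. The 57 members share 55 such windows, which were compared with 8771 windows of other genes. AGGTCA, the core letters bound by many nuclear receptors, was in 2 of 55 windows (3.64%), those of mrpl-15 and mrpl-37, against 5.37% for other genes. CACGTG, the E-box, was in 2 (3.64%), those of mrps-27 and mrpl-50, against 3.44%. GAGAGA was in 6 (10.9%, interval 4.11 to 22.2), against 14.7% for other genes and 38.1% of the 415 thresholded peaks. None of these 3 patterns was in a window of the 4 thresholded members.

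The 2 letter groups in capitals in the printed stretches were picked by reading the members' own sequences, so their shares among members are high by choice and are a description only. GCGCTCC was in 6 windows, those of mrpl-55, mrpl-45, mrpl-49, mrpl-47, mrps-9 and the shared window of mrps-24 and mrpl-1 (10.9%), against 1.96% of windows of other genes, 5.78% of thresholded peaks and 1.19% of the pooled regions below the threshold. CAAACACC was in the windows of mrpl-28, mrpl-45, mrps-17 and mrps-16 (7.27%), against 1.53%, 3.37% and 1.04% in the same order. Among 68 windows of cytosolic ribosomal protein genes, GCGCTCC was in 6 (8.82%, interval 3.31 to 18.2), close to the members' share. These 6 include the window that rpl-28 shares with mrpl-49, which was among the sequences read to pick the pattern. The cytosolic count is thus not fully separate from that choice. CAAACACC was in 1 of the 68 cytosolic windows (1.47%). In the stretch of mrpl-45 both occur, CAAACACC at 2 places. The windows of mrps-21, mrps-7 and mrpl-12, which rank among the 5 highest members, held neither. Among windows ranked 3000 or higher GCGCTCC was in 4 of 20 for members and 4.82% for other genes, and CAAACACC in 4 of 20 and 3.28%. A match is a match of letters only, and the 2 groups do not overlap in the printed stretches.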

How the data were processed

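Chromatin immunoprecipitation of eGFP-tagged NHR-77 was sequenced from 2 replicates of 1 group of L2 larvae. The authors deposited narrowPeak lists of regions per replicate, pooled, and thresholded on the pooled list. Per the file headers and text files, the relaxed lists were made from alignments and a control. Column 7, the signal value, is a score that the authors' caller gave, on an unstated scale. The sources used here name neither the aligner nor the caller. Only the ce11 lists were read, since no annotation of the other build was used. Coordinates count from 1. Genes came from Ensembl release 115 and sequence and product names from RefSeq.

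Computed here (Python 3.11.15, pandas 2.3.3, scipy 1.17.1) were the highest region per start, its rank and overlap (at least 1 bp) in each replicate's list, shares with exact binomial intervals, medians, and pattern counts. No test was run. Members were assigned to bacterial counterpart or not by their number. The search was checked on simulated regions. Named genes were the thresholded members, the 15 highest, the 3 lowest, the 3 on each side of 1000 bp, those without a region, up to 3 per pathway list (dap-3 and rpom-1 were added after their values were seen) and the members of the runs described. The members and lists were chosen with earlier results of these data known. The runs and the capital patterns were chosen after the values were seen, and genes named from them too. The alternatives were other distances (500 and 2000 bp), overlap in place of summits, other start definitions, gaps and rank limits, leaving out regions near short RNA genes, and each replicate alone.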

Additional observations from a re-analysis of the deposited data

How the results depend on the processing

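A region was found for 42 members at 500 bp and 61 at 2000 bp, for 47 when the member's start had to be the nearest, and for 44 to 52 in a single replicate, against 57 in the report; 42, 44 and 47 lie below its interval. Thresholded members numbered 3 at 500 bp, without mrps-21, and 6 at 2000 bp. Read in 1 replicate, counting the 415 highest regions, they numbered 2 to 4, the lower count being that of replicate 1 alone. The median signal value in 1 replicate was 3.29 to 8.11, on the scales of those lists. Members among the highest regions of both replicates numbered 0 with the upper 207 regions, 4 with the upper 830, 4 with the upper 2075, and 1 when each replicate's highest region at the start was taken instead of the overlapping one. Beside these counts, shares of all genes were computed for each replicate alone only. How members compare with all genes at the other distances, nearest-start rule and rank limits was not tested. At 500 bp the share with a region among members behind a same-strand gene was 51.9%, below the 65.1% of the others, where at 1000 bp it was 88.9%, against 76.7%: the smaller window leaves out their distant summits. With a divergent start it was 69.2%, above the 54.5% of the others, where at 1000 bp it was 76.9%, against 84.1%. Among the first genes of runs, chosen after seeing the data, the count with a thresholded peak was 3 to 6 in 1 replicate, the lower being replicate 1 alone, 4 with gaps of 250 bp and 6 with gaps of 1000 bp. The share was 11.1% in replicate 1 alone (interval 2.35 to 29.2), against 3.95% of all such genes, and 22.2% in replicate 2 alone, against 4.06%. At 250 bp it was 19.0% (interval 5.45 to 41.9), against 5.86%, and at 1000 bp 17.6%, against 3.68%. The intervals for replicate 1 alone and for 250 bp include the share of all such genes. For the first genes the distance from the start was kept at 1000 bp, and counts at 500 or 2000 bp were not computed. The Spearman rho between replicates was 0.12 to 0.46 under the other choices. The cause of these shifts was not tested unless stated. Depth is unknown, so a region missing from a list may be one below that list's lowest value. No paired analysis was possible because there is 1 group of 2 replicates and no test.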

Other observations

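The list of replicate 1 held 23 regions on mitochondrial DNA, the genome that the members' products translate, and that of replicate 2 and the pooled list held none. Its highest region, with a signal value of 131, was one of them, and regions in the genes of the 2 mitochondrial ribosomal RNAs ranked 9, 11 and 75 there.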
